A study of Mus musculus with 4 samples.

Results

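The genes described here are markers of macrophages, monocytes, antigen-presenting cells, mast cells and lymphocytes, measured in whole embryonic hearts. They were chosen by gene symbol from a list of 40, of which 35 have a row among the 14936 genes of the deposited table. Itgam, Timd4, Trem2, H2-Aa and H2-Eb1 were not analysed here. Poly(A) RNA was sequenced from hearts of 4 mouse embryos at E18.5 on a C57BL/6 background, and all 4 embryos were homozygous for a floxed Adar1 allele, listed as Adar. The 2 mutants, embryos 51 and 54, carried 1 Nkx2.5-Cre allele, and the 2 controls, embryos 47 and 50, carried none. Nkx2.5-Cre expresses the Cre recombinase from a gene of cardiac progenitors, and Cre joins the loxP sites of a floxed allele, so recombination depends on where that gene was active. Only the mutants carried Cre, so effects of the Cre allele and of the floxed allele's recombination cannot be told apart.

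Macrophages settle in the heart before birth, where they clear dying cells and debris. Their survival depends on the receptor Csf1r and its ligands, and the transcription factor PU.1, encoded by Spi1, specifies the myeloid lineage. Resident tissue macrophages carry scavenger receptors such as Mrc1 and Cd163, monocytes carry the chemokine receptor Ccr2, and interferons are known to raise genes such as Fcgr1, Cybb and Ctss in macrophages. Mast cells store proteases in granules, and T lymphocytes signal through the kinase Lck. In bulk RNA from a whole heart, a change in the number of cells of a type and a change in RNA per cell cannot be told apart.

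The table held between 7457103 and 8998872 reads per library, with values in CPM, read counts that the authors had scaled. The CPM of a library summed to between 935156 and 1034350, and how they were scaled is not given. The leukocyte markers drew on few of these reads, between 0 and 579 per gene and library, so low members carry a large counting error. Adar stood at 195 and 213 CPM in mutants 51 and 54, compared with 30.2 and 35.7 CPM in controls 47 and 50 (adjusted p = 2.41e-05 with limma). Reads assigned to the whole gene were thus more frequent, not fewer, in hearts labelled as mutant. Of its 8118 exonic bases, 1365 are also exonic in Chrnb2 on the opposite strand. How the counting treated strands is not given, so reads of Adar and Chrnb2 may be mixed. No source used here names the floxed exons, so the deletion itself was not checked, and mutant and control are names taken from the labels. All 30 tested interferon-stimulated genes of a separate list rose in the mutants, against 17.8% of all genes tested. That list was chosen with earlier results of these data known. The heart itself was present in every library, with 15 cardiomyocyte genes summing to 26800 and 40805 CPM in mutants 51 and 54, compared with 66051 and 52814 CPM in controls 47 and 50. The part of this lower muscle share in the leukocyte values was not tested.

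In the mutant hearts, genes of phagocyte killing and digestion, the pan-leukocyte gene Ptprc, the high-affinity Fc receptor gene Fcgr1, the 3 complement C1q genes and the T-cell kinase gene Lck were higher. Lower were the resident macrophage genes Mrc1, F13a1 and Pf4 and the mast cell protease genes Tpsb2 and Cma1, while Ms4a7, also of resident macrophages, was higher and Adgre1 lay above both controls without passing the test. Csf1r, the receptor gene that defines the macrophage lineage, differed by less than the spread between embryos. Of the 35 genes, 34 passed a filter of at least 1 CPM in 2 or more libraries. By limma's moderated test on log2(CPM + 1), with Benjamini-Hochberg adjustment over all 14869 genes tested and a threshold of 0.05, 14 of the 34 rose, 5 fell and 15 did not pass. Over all genes tested, 17.8% rose and 14.2% fell by the same rule (31.9% in either direction), 2643 and 2107 genes, and with upper-quartile scaling in place of the authors' these were 2251 and 2937. The median log2 fold change, mutant minus control, was 0.73 over the 34 genes and -0.01 over all genes tested. Both mutants lay above both controls for 20 of the 35, against 36.0% of all genes tested, and below both for 9, against 36.3% (72.2% in either direction). By the FDR of the authors' deposited table, 21 of the 35 lay under 0.05, against 30.9% of all its genes. Aif1, Cd14, Lck and Gzma passed the filter only through the mutants and Cma1 only through the controls, so the filter itself favoured a difference in them.

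**Figure D1:**
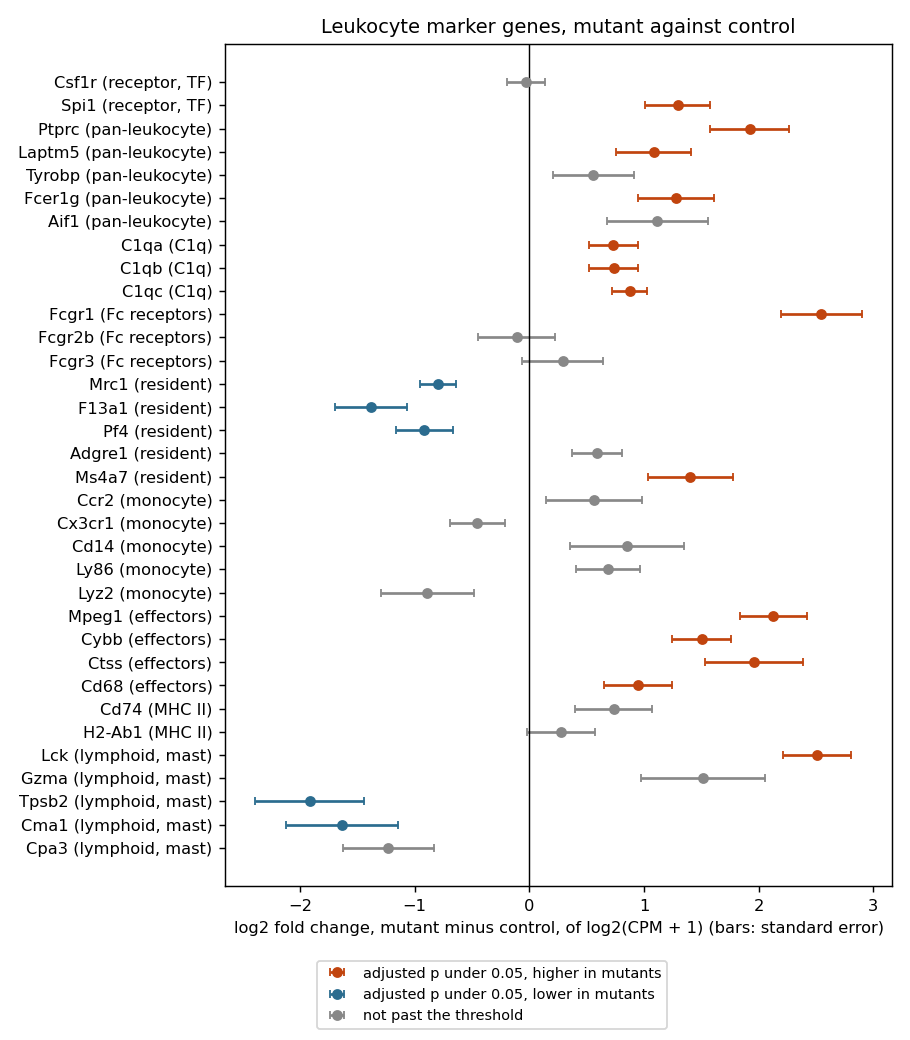
Log2 fold change of the 34 tested marker genes, mutant minus control as log2(CPM + 1), on the horizontal axis, with points for estimates and bars for limma standard errors (2 libraries per group). Of the genes, 14 lie past the threshold on the higher side and 5 on the lower side, with Fcgr1 highest at 2.55 and Tpsb2 lowest at -1.92.

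The calls rest on both controls. Without control replicate 47, 1 of the 34 genes rose and 0 fell, and without control replicate 50, 2 rose and 2 fell, in fits where the lone control is assumed to vary like the mutants. Without mutant replicate 51, 8 rose and 2 fell, and without mutant replicate 54, 20 rose and 5 fell. Lck was the only called gene past the threshold with each of the 4 libraries left out in turn, at an adjusted p of 0.0380 without control replicate 47 and 0.0435 without control replicate 50. Lck passed the filter only through the mutants, and the filter was not redone with a library left out, so these fits keep that advantage. All 19 called genes had the same sign under each alternative in which they were tested.

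**Figure D2:**
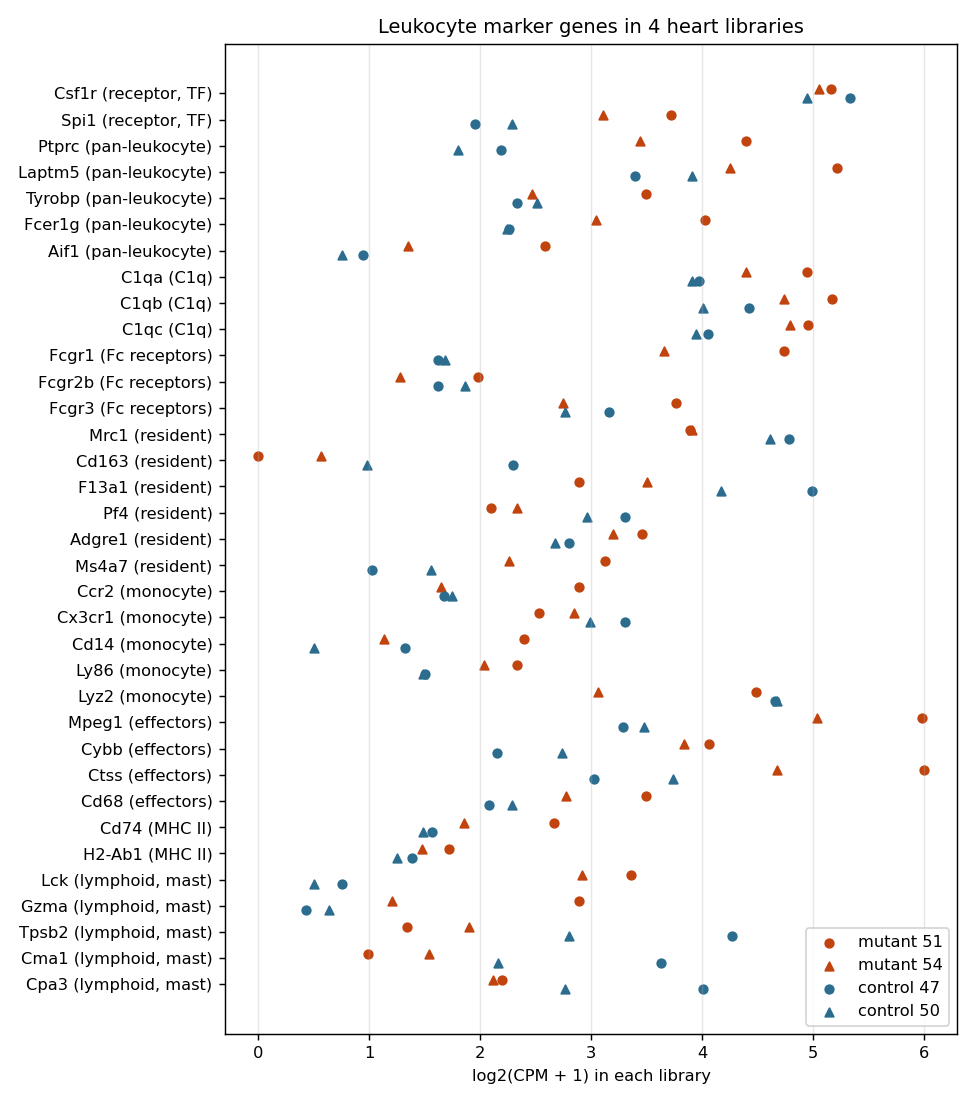
Level of each of the 35 marker genes on the horizontal axis as log2(CPM + 1), with mutant 51 and mutant 54 in orange and control 47 and control 50 in blue (circles for embryos 51 and 47, triangles for embryos 54 and 50). Both mutants stand to the right of both controls for 20 genes and to the left for 9.

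All 4 phagocyte effector genes rose, against 17.8% of all genes tested. Mpeg1, which encodes the pore-forming protein perforin-2, had 62.2 and 31.7 CPM in mutants 51 and 54, compared with 8.74 and 10.1 CPM in controls 47 and 50. The groups did not overlap, and the log2 fold change was 2.13 (adjusted p = 0.00302, SE 0.30). Ctss, the lysosomal protease cathepsin S that trims the invariant chain of MHC class II, stood at 63.0 and 24.5 CPM in the mutants, against 7.13 and 12.3 CPM in the controls. It rose by 1.96 on the log2 scale (adjusted p = 0.0148, SE 0.43), and mutant 51 was the highest by far. Cybb, the catalytic subunit of the phagocyte NADPH oxidase, reached 15.7 and 13.3 CPM in the mutants, against 3.45 and 5.67 CPM in the controls, a log2 fold change of 1.5 (adjusted p = 0.00658, SE 0.26). The 2 mutant hearts were closer to each other for Cybb than for Mpeg1 or Ctss. Cd68, an endosomal glycoprotein of macrophages, had 10.2 and 5.82 CPM in the mutants, against 3.22 and 3.87 CPM in the controls, a log2 fold change of 0.95 (adjusted p = 0.0481, SE 0.30). Its call ended with upper-quartile scaling, quantile normalization, a pseudocount of 5 and DESeq2 (adjusted p = 0.0636), and without mutant replicate 51 (log2 fold change 0.59). Summed over the 4 genes, the level was 151 and 75.3 CPM in mutants 51 and 54, compared with 22.5 and 31.9 CPM in controls 47 and 50. Without control replicate 47 none of the 4 calls held, with adjusted p between 0.0807 and 0.25, and without control replicate 50 only that of Cybb did (adjusted p = 0.0417). Without mutant replicate 51, Ctss stood at a log2 fold change of 1.29, with adjusted p = 0.0278.

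Promoters of 4 genes that rose (Fcgr1, Mpeg1, Ctss and Cybb) and 2 that fell (Mrc1 and Pf4) are shown as examples of the called phagocyte effector, Fc receptor and resident macrophage genes, and they were picked with the results known. Each runs from 250 bases before to 50 after the RefSeq start on GRCm38.p6, 5′ to 3′ on the gene's strand, and capitals mark matches to the motifs named below.
Fcgr1 (chr3:96293920-96294219, minus strand): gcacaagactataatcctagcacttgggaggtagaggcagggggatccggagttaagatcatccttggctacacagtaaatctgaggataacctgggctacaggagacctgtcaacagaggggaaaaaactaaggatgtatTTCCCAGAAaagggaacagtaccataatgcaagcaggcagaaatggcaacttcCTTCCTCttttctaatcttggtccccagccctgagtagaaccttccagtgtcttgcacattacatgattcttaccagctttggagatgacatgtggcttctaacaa
Mpeg1 (chr19:12460520-12460819, plus strand): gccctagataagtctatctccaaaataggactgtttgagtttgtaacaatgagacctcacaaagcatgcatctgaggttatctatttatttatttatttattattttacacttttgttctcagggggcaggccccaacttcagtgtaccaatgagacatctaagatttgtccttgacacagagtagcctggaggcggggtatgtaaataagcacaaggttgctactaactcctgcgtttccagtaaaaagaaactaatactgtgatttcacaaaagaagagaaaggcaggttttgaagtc
Ctss (chr3:95526536-95526835, plus strand): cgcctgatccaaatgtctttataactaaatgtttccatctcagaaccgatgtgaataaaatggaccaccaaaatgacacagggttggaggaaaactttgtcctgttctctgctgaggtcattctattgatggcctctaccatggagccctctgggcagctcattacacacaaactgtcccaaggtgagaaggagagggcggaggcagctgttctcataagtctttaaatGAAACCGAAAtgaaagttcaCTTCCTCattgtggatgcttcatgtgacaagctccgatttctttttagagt
Cybb (chrX:9469275-9469574, minus strand): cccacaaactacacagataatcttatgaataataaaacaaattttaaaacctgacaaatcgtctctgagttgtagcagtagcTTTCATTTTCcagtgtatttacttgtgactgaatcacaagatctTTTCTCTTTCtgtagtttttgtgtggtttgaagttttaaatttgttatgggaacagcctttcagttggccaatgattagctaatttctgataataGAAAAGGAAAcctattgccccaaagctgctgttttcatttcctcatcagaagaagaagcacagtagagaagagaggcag
Mrc1 (chr2:14229164-14229463, plus strand): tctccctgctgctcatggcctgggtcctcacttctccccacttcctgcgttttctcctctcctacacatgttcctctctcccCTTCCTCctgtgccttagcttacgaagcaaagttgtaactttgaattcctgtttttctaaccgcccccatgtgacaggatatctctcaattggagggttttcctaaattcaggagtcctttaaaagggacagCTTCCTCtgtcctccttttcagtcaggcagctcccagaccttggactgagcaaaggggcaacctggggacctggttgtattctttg
Pf4 (chr5:90772185-90772484, plus strand): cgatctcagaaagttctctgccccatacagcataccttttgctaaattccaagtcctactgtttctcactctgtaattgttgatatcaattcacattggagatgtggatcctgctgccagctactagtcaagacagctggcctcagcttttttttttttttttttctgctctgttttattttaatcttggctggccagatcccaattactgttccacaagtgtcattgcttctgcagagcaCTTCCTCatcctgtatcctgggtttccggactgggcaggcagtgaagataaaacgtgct
The motifs were searched on both strands and none of their matches in these windows overlap. The core of the interferon-stimulated response element, GAAA and a further GAAA separated by any 2 bases (TTTC and TTTC on the other strand), is in 3.44% of 32851 promoters of this length. TTCNNNGAA, the gamma-activated site bound by STAT dimers, is in 8.3%, and GAGGAAG (or CTTCCTC), a core bound by PU.1, in 13.6%. Cybb holds 3 matches to the response element and Ctss 1, Fcgr1 holds 1 gamma-activated site, and Ctss, Fcgr1, Pf4 and Mrc1 hold 1, 1, 1 and 2 of the PU.1 core. Mpeg1 holds 0 matches to any of the 3 motifs. Of the 35 genes, 26 have a promoter in the RefSeq table. The response element was found in 2 of 12 that rose, 0 of 4 that fell and 2 of 9 without a call. The PU.1 core was in 5, 3 and 1 of the same genes, and the gamma-activated site in 1, 0 and 0. A match describes these letters and is not evidence of binding.

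Among the Fc gamma receptors, which bind the constant part of IgG, Fcgr1 rose and the other 2 did not pass the test. Fcgr1, the high-affinity receptor CD64, had 25.7 and 11.6 CPM in mutants 51 and 54, compared with 2.07 and 2.21 CPM in controls 47 and 50. Its mean was 8.72 times the control mean, and the log2 fold change was 2.55 (adjusted p = 0.00302, SE 0.36). Fcgr2b, the inhibitory receptor, stood at 2.94 and 1.42 CPM in the mutants, against 2.07 and 2.63 CPM in the controls, with groups that overlapped. Fcgr3, an activating low-affinity receptor, had 12.6 and 5.70 CPM in the mutants, against 7.93 and 5.81 CPM in the controls, with a log2 fold change of 0.29 and a 95% interval from -0.54 to 1.13. Mutant 51 was the highest library for each of the 3. Fcgr4, a further activating receptor outside the marker list, rose by 2.22 (adjusted p = 0.0145, SE 0.48), at 13.9 and 4.27 CPM in the mutants, against 1.15 and 0.691 CPM in the controls. Fcgr2b, Fcgr3 and Fcgr4 are related sequences, and reads shared between them may be split uncertainly. Fcgr4 passed the filter only through the mutants. Without mutant replicate 51 it stood at 1.47, and without control replicates 47 and 50 its adjusted p was 0.124 and 0.143. Without control replicates 47 and 50 in turn, the adjusted p of Fcgr1 was 0.0751 and 0.0675.

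Csf1r had 34.7 and 32.3 CPM in mutants 51 and 54, compared with 39.3 and 29.9 CPM in controls 47 and 50. The groups overlapped, with a log2 fold change of -0.03 (adjusted p = 0.890, SE 0.16) and a 95% interval from -0.42 to 0.36. Of its 5774 exonic bases, 873 are also exonic in Hmgxb3 on the opposite strand. The strand setting of the counting is not given in the sources used here, so reads of the pair may be mixed. Hmgxb3 itself had 47.4 and 45.9 CPM in the mutants, against 37.6 and 35.0 CPM in the controls. Csf1, a ligand of Csf1r, rose by 2.23 (adjusted p = 4.01e-05, SE 0.12), at 97.9 and 98.7 CPM in the mutants, against 21.1 and 19.2 CPM in the controls. Spi1, encoding PU.1, stood at 12.2 and 7.60 CPM in the mutants, against 2.87 and 3.87 CPM in the controls, a log2 fold change of 1.29 (adjusted p = 0.0154, SE 0.29). No scaling between libraries can change the ratio of Fcgr1 to Csf1r within a library. It was 0.740 and 0.360 in mutants 51 and 54, against 0.0526 and 0.0741 in controls 47 and 50. The pair sets a gene that rose over a gene without a call, so a higher ratio in the mutants follows from that choice. Csf1 passed the threshold with each library left out. Leaving out either control ended the Spi1 call, at an adjusted p of 0.148 without control replicate 47 and 0.0989 in the absence of control 50.

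Of the 5 tested pan-leukocyte genes, 3 rose (against 17.8% of all genes tested) and 0 fell (against 14.2%). Ptprc, the tyrosine phosphatase CD45 found on nearly all leukocytes, had 20.0 and 9.85 CPM in mutants 51 and 54, compared with 3.56 and 2.49 CPM in controls 47 and 50. The groups were well apart, with a log2 fold change of 1.92 (adjusted p = 0.00759, SE 0.34). Fcer1g, the signalling chain shared by activating Fc receptors, stood at 15.2 and 7.24 CPM in the mutants, against 3.79 and 3.73 CPM in the controls, a log2 fold change of 1.28 (adjusted p = 0.0270, SE 0.33). Laptm5, a lysosomal membrane protein of hematopoietic cells, had 36.2 and 18.04 CPM in the mutants, against 9.54 and 14.0 CPM in the controls, a log2 fold change of 1.08 (adjusted p = 0.0429, SE 0.33). Quantile normalization ended the Laptm5 call. Tyrobp, the adaptor DAP12, had 10.2 and 4.51 CPM in the mutants, against 4.02 and 4.70 CPM in the controls, so that only mutant 51 stood above the controls. Aif1, the actin-binding protein IBA1, stood at 5.01 and 1.54 CPM in the mutants, against 0.920 and 0.691 CPM in the controls, with log2 fold change 1.12 (adjusted p = 0.0921, SE 0.44). Without mutant replicate 51 the calls of Laptm5 and Fcer1g ended, at log2 fold changes of 0.60 and 0.79. Without either control all 3 calls ended, with adjusted p between 0.0870 and 0.280.

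The 3 chains of complement C1q, which opens the classical complement pathway and which macrophages secrete, rose to a similar degree. C1qa had 29.8 and 20.1 CPM in mutants 51 and 54, compared with 14.7 and 14.0 CPM in controls 47 and 50, a log2 fold change of 0.73 (adjusted p = 0.0365, SE 0.21). For C1qb the values were 34.9 and 25.6 CPM in the mutants, against 20.5 and 15.1 CPM in the controls, a log2 fold change of 0.74 (adjusted p = 0.0372, SE 0.21). C1qc stood at 30.0 and 26.7 CPM in the mutants, against 15.6 and 14.4 CPM in the controls, a log2 fold change of 0.87 (adjusted p = 0.00753, SE 0.16). Both mutants exceeded both controls for each chain, as they did for 36.0% of all genes tested. The 3 genes lie next to each other on chromosome 4, and within a library the ratio of C1qa to C1qb was 0.854 and 0.782 in the mutants, against 0.719 and 0.927 in the controls. The C1qa and C1qb calls ended with upper-quartile scaling and without mutant replicate 51 (log2 fold changes 0.46 and 0.52), and all 3 ended without either control, with adjusted p between 0.0870 and 0.243.

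The genes of resident macrophages moved in both directions, with 3 of 5 tested genes lower and 1 higher. Over all genes tested, 14.2% were lower and 17.8% higher by the same rule. Mrc1, the mannose receptor CD206, had 13.8 and 14.0 CPM in mutants 51 and 54, compared with 26.6 and 23.4 CPM in controls 47 and 50. The 2 mutants nearly coincided, and the log2 fold change was -0.80 (adjusted p = 0.0110, SE 0.16). F13a1, the coagulation factor XIII subunit that macrophages also make, stood at 6.42 and 10.3 CPM in the mutants, against 30.7 and 17.01 CPM in the controls, a log2 fold change of -1.38 (adjusted p = 0.0177, SE 0.32). Pf4, a chemokine of resident macrophages and of platelets, had 3.26 and 4.04 CPM in the mutants, against 8.85 and 6.78 CPM in the controls, a log2 fold change of -0.92 (adjusted p = 0.0297, SE 0.25). With DESeq2 its adjusted p was 0.0713. Platelets also hold Pf4. Of 7 tested megakaryocyte and platelet genes 1 rose (against 17.8% of all genes tested) and 0 fell (against 14.2%). Their median log2 fold change was -0.28. Their sum was 293 and 257 CPM in mutants 51 and 54, compared with 189 and 299.7 CPM in controls 47 and 50. Thbs1 and Vwf were the largest parts of this sum. Thbs1 had 151 and 82.9 CPM in the mutants, against 51.1 and 57.5 CPM in the controls. Vwf had 106 and 142 CPM, against 96.3 and 197 CPM. Of the 7 genes, Thbs1 lay above both controls in both mutants (against 36.0% of all genes tested). Itgb3 lay below (against 36.3%), and 5 overlapped. The part of platelets in the Pf4 values was not tested. Cd163, the hemoglobin scavenger receptor, had 0 and 0.475 CPM in the mutants, against 3.91 and 0.968 CPM in the controls, from 0, 4, 34 and 7 reads in the same order. It failed the filter, and without a filter its log2 fold change was -1.36 (adjusted p = 0.0811). Hemoglobin reads, a measure of red blood cells, made up 0.0705% and 0.497% of mutants 51 and 54, against 0.536% and 1.24% of controls 47 and 50, and their part in these values was not tested.

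Summed over all 6 resident macrophage genes, the level was 41.2 and 40.8 CPM in mutants 51 and 54, compared with 77.0 and 55.5 CPM in controls 47 and 50, a ratio of group means of 0.620. Ms4a7, a tetraspan membrane protein of macrophages, was the gene of this group that rose. It had 7.73 and 3.80 CPM in mutants 51 and 54, compared with 1.03 and 1.94 CPM in controls 47 and 50, a log2 fold change of 1.40 (adjusted p = 0.0279, SE 0.37). Adgre1, the macrophage surface receptor F4/80, stood at 10.0 and 8.19 CPM in the mutants, against 5.98 and 5.39 CPM in the controls, and did not pass the test (log2 fold change 0.59, SE 0.22, adjusted p = 0.0764). Its groups did not overlap. The ratio of Mpeg1 to Mrc1 within a library was 4.50 and 2.26 in the mutants, against 0.329 and 0.432 in the controls. This ratio is also free of any scaling between libraries. It sets a gene that rose over a gene that fell, so its direction follows from those calls. Without mutant replicate 51 the calls of F13a1, Pf4 and Ms4a7 ended, with adjusted p of 0.0550, 0.0739 and 0.0748. Without control replicate 47 and without control replicate 50 none of the 4 calls of resident macrophage genes held, with adjusted p between 0.0644 and 0.219, and the log2 fold change of F13a1 was then -0.97 and -1.79.

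None of the 5 monocyte genes passed the test, against 31.9% of all genes tested. Ccr2, the receptor that draws monocytes out of blood, had 6.42 and 2.14 CPM in mutants 51 and 54, compared with 2.18 and 2.35 CPM in controls 47 and 50. Lyz2, the lysozyme of myeloid cells, stood at 21.4 and 7.36 CPM in the mutants, against 24.3 and 24.5 CPM in the controls. It was lowest in mutant 54, and without mutant replicate 51 it passed the test at -1.60 (adjusted p = 0.00240). Cx3cr1, the fractalkine receptor, had 4.79 and 6.17 CPM in the mutants, against 8.85 and 6.91 CPM in the controls (log2 fold change -0.45, SE 0.24, adjusted p = 0.182). Cd14, a co-receptor for bacterial lipopolysaccharide, stood at 4.24 and 1.19 CPM in the mutants, against 1.49 and 0.415 CPM in the controls. Ly86, the MD-1 protein that partners a Toll-like receptor homologue, had 4.03 and 3.09 CPM in the mutants, against 1.84 and 1.80 CPM in the controls (log2 fold change 0.69, SE 0.28, adjusted p = 0.0972). Of these 5 genes, Ccr2 and Cd14 overlapped between the groups.

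Both measured MHC class II genes, which serve antigen presentation to CD4+ T cells, lay above the controls in each mutant without passing the test. The same position was held by 36.0% of all genes tested. Cd74, the invariant chain, had 5.33 and 2.61 CPM in mutants 51 and 54, compared with 1.95 and 1.80 CPM in controls 47 and 50 (log2 fold change 0.73, SE 0.34, adjusted p = 0.136). H2-Ab1, a class II beta chain, stood at 2.29 and 1.78 CPM in the mutants, against 1.61 and 1.38 CPM in the controls, with a 95% interval of the log2 fold change from -0.42 to 0.98. H2-Ab1 had between 10 and 21 reads per library. Of 10 further class II genes and costimulators tested, 2 rose (against 17.8% of all genes tested) and 0 fell (against 14.2%). These were Cd40, a costimulatory receptor, by 0.95 (adjusted p = 0.0312, SE 0.26) and Cd80, a ligand of CD28, by 1.13 (adjusted p = 0.0345, SE 0.32). Cd80 passed the filter only through the mutants. Both calls ended without either control, with adjusted p between 0.113 and 0.204, that of Cd80 without mutant replicate 51 (0.0687) and that of Cd40 without mutant replicate 54 (0.0686).

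Lck, the kinase that starts T-cell receptor signalling, had 9.25 and 6.53 CPM in mutants 51 and 54, compared with 0.690 and 0.415 CPM in controls 47 and 50. These are 85 and 55 reads in the mutants, against 6 and 3 in the controls, and the log2 fold change was 2.51 (adjusted p = 0.00154, SE 0.30). With edgeR's quasi-likelihood test on recovered reads it was 3.78, since log2(CPM + 1) understates changes of low genes. Lck passed the filter only through the mutants, which favoured a difference. Gzma, a protease of cytotoxic lymphocytes, stood at 6.42 and 1.31 CPM in the mutants, against 0.345 and 0.553 CPM in the controls. Its adjusted p was 0.0688 with limma and 0.0401 with edgeR. Both mutants lay above both controls, as for 36.0% of all genes tested. Mutant 51 was the highest, with 59 reads, and mutant 54 had 11, against 3 and 4 in controls 47 and 50. Of 44 other lymphocyte genes listed, 10 had rows and 6 were tested. Of these, 1 rose (against 17.8% of all genes tested) and 0 fell (against 14.2%). The gene that rose, which passed the filter only through the mutants, was Pax5, a B-cell transcription factor, at 5.01 and 2.02 CPM in the mutants, against 0.115 and 0 CPM in the controls (adjusted p = 0.0117, and 0.114 and 0.117 without control replicates 47 and 50). Cd247, the zeta chain of the T-cell receptor complex, had 16.1 and 10.2 CPM in the mutants, against 8.51 and 10.5 CPM in the controls (adjusted p = 0.25).

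All 3 mast cell protease genes were lowest in the mutants, as were 36.3% of all genes tested, and they also differed between the controls. Tpsb2, a tryptase, had 1.52 and 2.73 CPM in mutants 51 and 54, compared with 18.3 and 5.95 CPM in controls 47 and 50, a log2 fold change of -1.92 (adjusted p = 0.0229, SE 0.48). Cma1, a chymase, stood at 0.979 and 1.90 CPM in the mutants, against 11.4 and 3.46 CPM in the controls, a log2 fold change of -1.63 (adjusted p = 0.0411, SE 0.49). A pseudocount of 5 ended the Cma1 call. Cpa3, mast cell carboxypeptidase, had 3.59 and 3.32 CPM in the mutants, against 15.1 and 5.81 CPM in the controls, and just missed the threshold (log2 fold change -1.23, SE 0.39, limma adjusted p = 0.0511, edgeR 0.0391). Summed, the 3 genes gave 6.09 and 7.95 CPM in mutants 51 and 54, compared with 44.7 and 15.2 CPM in controls 47 and 50. Control 47 thus held the high value of each. Without control replicate 47 the log2 fold changes of Tpsb2, Cma1 and Cpa3 were -1.18, -0.90 and -0.61, with adjusted p between 0.161 and 0.277. Without mutant replicate 51 the calls of Tpsb2 and Cma1 also ended (adjusted p = 0.071 and 0.120), and without control replicate 50 that of Cma1 did (0.055), at -2.37. Of 6 further mast cell and basophil genes tested, 0 passed the threshold (against 31.9% of all genes tested). Kit, the stem cell factor receptor that heart cells of other types also carry, stood at 24.7 and 22.9 CPM in the mutants, against 21.95 and 28.3 CPM in the controls. Tpsb2 has a close relative in Tpsab1, and reads of the pair may be split uncertainly. Kitl, the ligand of Kit, fell by 0.81 (adjusted p = 0.0127, SE 0.17), a call that ended without either control (adjusted p = 0.124 and 0.139).

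**Figure D3:**
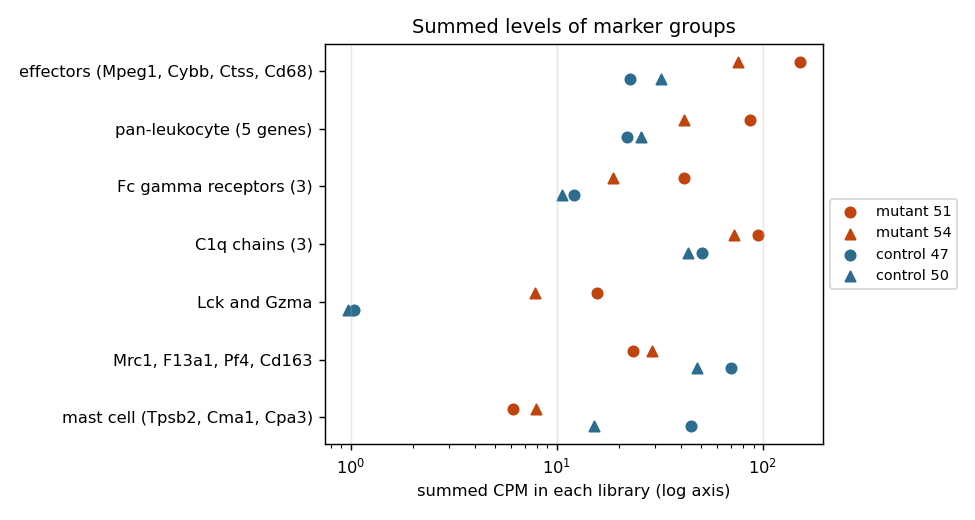
Summed CPM of 7 groups of marker genes on a log axis, with mutant 51 and mutant 54 in orange and control 47 and control 50 in blue. The sums of effector, pan-leukocyte, Fc receptor, C1q and lymphoid genes lie higher in both mutants, and those of Mrc1, F13a1, Pf4 and Cd163 (23.5 and 28.8 CPM in mutants 51 and 54, compared with 70.0 and 48.1 CPM in controls 47 and 50, a group picked for its low values, without Ms4a7 and Adgre1) and of mast cell genes lie lower.

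The 2 mutant hearts did not carry the markers equally. Mutant 51 exceeded mutant 54 for 28 of the 35 genes, against 47.5% of all genes tested, and control 47 exceeded control 50 for 22 of the 35, against 50.9%. Each of the 14 genes that rose was higher in mutant 51, and each of the 5 that fell was lower there. The median difference of the 34 tested genes from the control mean was 1.04 in mutant 51 and 0.46 in mutant 54 on the log2(CPM + 1) scale. Without mutant replicate 54, Tyrobp, Aif1, Ccr2, Cd14, Cd74 and Gzma also passed the threshold, with log2 fold changes from 1.07 for Tyrobp to 2.36 for Gzma. Mitochondrial transcripts made up 2.08% and 4.31% of reads in mutants 51 and 54, compared with 6.14% and 6.93% in controls 47 and 50, and their part in the marker values was not tested.

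**Figure D4:**
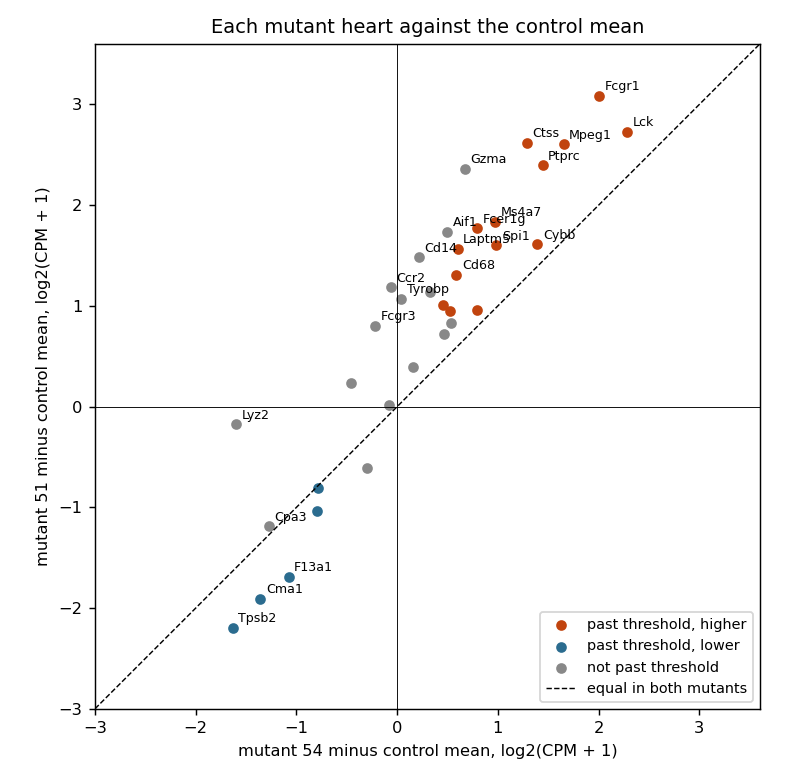
Difference of each tested marker gene from the control mean on the log2(CPM + 1) scale, in mutant 51 on the vertical axis and in mutant 54 on the horizontal axis, with a dashed line for equal differences. Points of genes that rose lie above the line and those of genes that fell lie below it, with medians over all 34 genes of 1.04 in mutant 51 and 0.46 in mutant 54.

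Levels can be compared between genes only per length, here as mean CPM per kilobase of exon in GENCODE M21. In the mutants the highest were Ctss at 32.2 ± 20.1, C1qb at 27.8 ± 6.04 and C1qa at 23.98 ± 6.63 CPM per kilobase (SD, n = 2), which did not differ beyond their spread. In the controls the order was Lyz2 at 18.51 ± 0.121, C1qb at 16.3 ± 3.50, C1qa at 13.8 ± 0.507 and Pf4 at 10.8 ± 2.03 CPM per kilobase (SD, n = 2). Lyz2 and C1qb overlapped within that spread, as did C1qb with C1qa and with Pf4, so the order of these pairs is one of means only. Ctss stood at 7.16 ± 2.70 CPM per kilobase in the controls, below Pf4 in mean but overlapping with it in spread. Pf4 stood at 5.06 ± 0.757 in the mutants, where it was below Ctss.

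Further lists of myeloid and lymphoid genes, without the markers themselves, gave a wider view. Of 37 tested genes of leukocyte signalling, 15 rose and 1 fell, with a median log2 fold change of 0.91. Over all genes tested, 17.8% rose and 14.2% fell. Dock2, which drives leukocyte migration, rose by 1.54 (adjusted p = 0.00678, SE 0.27), while Syk, a kinase downstream of Fc receptors, fell by 0.70 (adjusted p = 0.0217, SE 0.17). Mutant 51 exceeded mutant 54 for 35 of these 37. Of 14 myeloid transcription factors, 5 rose and 1 fell, with Cebpb at 126 and 49.0 CPM in the mutants, against 7.70 and 13.1 CPM in the controls. Of 10 monocyte and neutrophil genes, 4 rose and 1 fell, and Plac8, a small cysteine-rich protein of leukocytes, rose by 4.24 (adjusted p = 0.000608, SE 0.41) at 58.5 and 23.1 CPM in the mutants, against 0.805 and 1.24 CPM in the controls. Ly6c2, a marker of inflammatory monocytes named after its values were seen, had 24.3 and 3.09 CPM in the mutants, against 0.115 and 0.138 CPM in the controls, and Ly6c1 is a close relative with which it may share reads. Plac8, Ly6c2 and Fpr2, 3 of the 4 monocyte and neutrophil genes that rose, and Evi2a, Lilrb4a and Cd300lf, 3 of the 15 signalling genes that rose, passed the filter only through the mutants. Without either control, 0 of the 37 signalling genes passed, while 10 rose without mutant replicate 51, and 25 when mutant 54 was left out. Plac8 and Ly6c1 passed with each library left out, while Dock2, Syk, Cebpb and Ly6c2 did not pass without either control, with adjusted p between 0.0580 and 0.165, and the call of Syk also ended without mutant replicate 51 (adjusted p = 0.0502). Cebpb and Ly6c2 stood at 2.17 and 1.86 without mutant replicate 51.

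Of 20 other resident macrophage genes tested, 2 rose and 2 fell, no larger shares than the 17.8% and 14.2% of all genes tested. Siglec1, an interferon-responsive lectin of macrophages, stood at 21.4 and 14.6 CPM in mutants 51 and 54, compared with 1.38 and 1.66 CPM in controls 47 and 50, a log2 fold change of 2.89 (adjusted p = 0.000444, SE 0.26). Axl, a receptor for apoptotic cells, rose by 2.29 (adjusted p = 0.000601, SE 0.22). Cbr2, a carbonyl reductase, fell to 1.31 and 1.19 CPM in the mutants, against 29.8 and 20.3 CPM in the controls (log2 fold change -3.51, SE 0.25, adjusted p = 0.000148). Which cells the Cbr2 reads came from, macrophages or others, was not tested. Trpv4, a cation channel, fell by 1.03 (adjusted p = 0.0427, SE 0.31). Of 9 Fc and complement receptor genes, 2 rose and 2 fell, among them C3ar1, the receptor for C3a, at 1.28 (adjusted p = 0.00940, SE 0.24), Fcgrt, the neonatal Fc receptor, at -0.99 (adjusted p = 0.00353, SE 0.14), and Fcrls, a relative of the Fc receptors, at -1.15 (adjusted p = 0.0471, SE 0.36). Siglec1, Axl and Cbr2 passed with each library left out. Trpv4, C3ar1, Fcgrt and Fcrls did not pass without either control, with adjusted p between 0.0587 and 0.294, and without mutant replicate 51 Trpv4 and Fcrls did not (0.0971 and 0.0706). Fcrls also did not pass without mutant replicate 54 (0.0854).

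Over all genes tested, 17.8% rose and 14.2% fell. Of 18 lysosomal genes, 3 rose and 2 fell, which are no larger shares. Grn, the progranulin gene, stood at 0.90 (adjusted p = 0.0137, SE 0.19) and Scarb2, a lysosomal membrane protein, at 0.55 (adjusted p = 0.0146, SE 0.12). Psap, the saposin precursor, stood at -0.52 and Ctsd, cathepsin D, at -0.41 on the log2 scale. Of 13 genes of apoptotic cell recognition 0 rose and 1 fell, Anxa1. Of the 6 CSF1-axis genes tested, 2 rose and 1 fell, Csf2ra among the rises at 0.68 (adjusted p = 0.00971, SE 0.13). Endothelial genes had 1 rise and 2 falls of 18, megakaryocyte genes 1 rise of 7 (Thbs1), fibroblast genes 1 rise and 7 falls of 15, and cardiomyocyte genes 0 rises and 6 falls of 15. None of the calls of Grn, Scarb2, Psap, Ctsd, Anxa1, Thbs1 and Csf2ra held without either control, with adjusted p between 0.0915 and 0.268, and Thbs1 stood at 0.60 without mutant replicate 51. Those of Ctsd and Anxa1 also ended without mutant replicate 54 (0.0592 and 0.104).

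**Figure D5:**
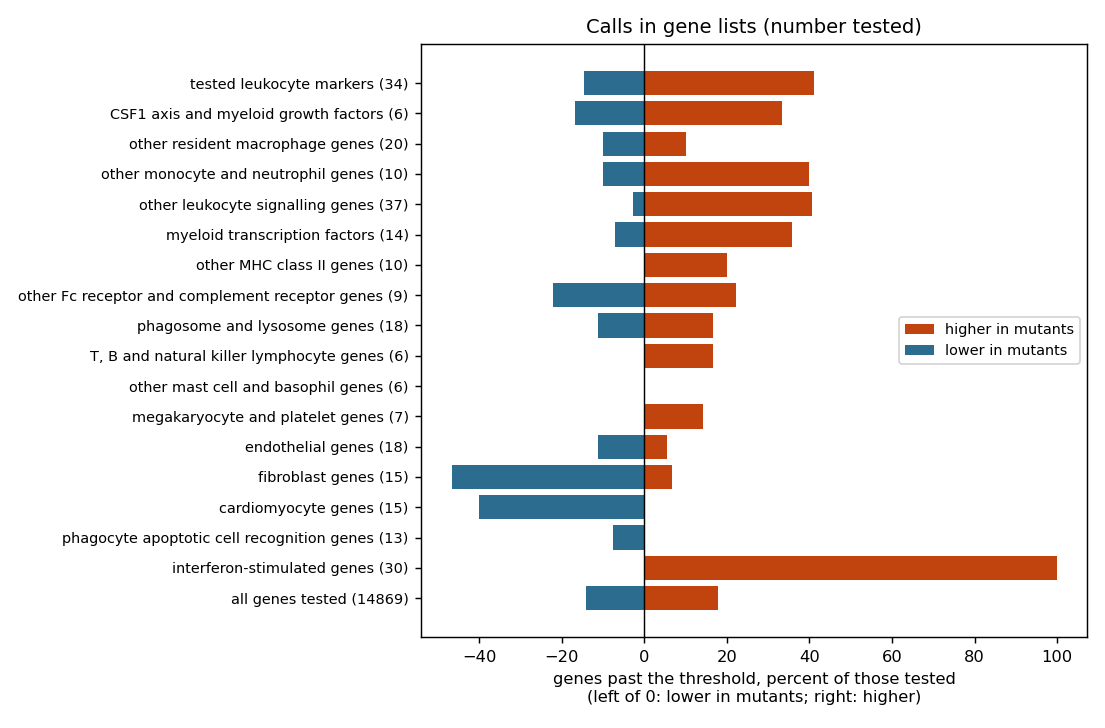
Share of tested genes past the threshold in each list, as a percent of those tested, to the right of 0 where higher in mutants and to the left where lower, with the number tested in parentheses. The 34 leukocyte markers (14 higher, 5 lower) and 37 leukocyte signalling genes (15 higher, 1 lower) lie further right than all genes tested (17.8% higher, 14.2% lower).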

How the data were processed

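Poly(A) RNA of 4 hearts was sequenced as paired reads of 150 bases from a directional library, per the labels' protocols. Per the submitters' processing notes the tools were STAR, fastp 0.20.0, DESeq and edgeR 3.10, with the GRCm38 build. What each did, the counter and its strand setting are not given. The deposited values are CPM per the file headers, a scaled read signal whose column sums differ from a common total. The mean log2 CPM column, the p-value and FDR columns and the F score column are also the authors', per the file headers, as is the deposited logFC score, which was not used.

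Within each library 100% of CPM values were whole multiples of the smallest one, to a tolerance of 0.001, so 1 read equals 0.109 to 0.138 CPM. Reads recovered from these steps served edgeR 4.0.16, which called 4653 genes, and DESeq2 1.42.0 as alternatives. Log2(CPM + 1) was fitted with limma-trend (limma 3.58.1, R 4.3.3) on genes with at least 1 CPM in 2 libraries, with genotype as the only term. Errors of fold changes are standard errors. Libraries are labelled as separate embryos, and p-values rest on the spread between 2 per group, with each gene's variance drawn toward a trend over all genes. With 2 libraries a group, exact permutation reaches no two-sided p under 0.333 and was left out. Steps were tested on simulated data with the same small spread for all genes. That test does not show how they perform at the spread between these embryos.

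Markers and lists were chosen with earlier results of these data known, so lists are described by counts and medians. All marker genes are named, and from each further list up to 2 rises and 2 falls of smallest p, of which 1 is not reported here. From lists with no call the most abundant genes are named, and Cd247 and Ly6c2, and genes named for passing the filter only through the mutants, were named after their values were seen. Positions and exon lengths are from GENCODE M21, and promoters from RefSeq (GRCm38.p6). Alternatives were the pseudocount, the filter, the scaling, count tests and leaving out each library. Groups were read from sample titles, since the genotype entry of the Cre embryos names wild type and knockout at once.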

Additional observations from a re-analysis of the deposited data

How the results depend on the processing

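Leaving out 1 library at a time, the count of all genes that rose lay between 534 and 2905 and of those that fell between 37 and 2750. The marker genes that rose numbered between 1 and 20 and those that fell between 0 and 5, and of the further lists between 36 and 93 genes rose and between 1 and 35 fell. The low ends came from leaving out a control, after which the spread comes from the mutants alone. Under the other 9 alternatives these counts stayed within 1.5 times of those reported, with 11 to 15 markers up and 4 to 6 down. The median of all genes moved by less than 0.1 under each scaling. Of the 19 called markers, 13 passed under every alternative that leaves out no library (a filter at 5 CPM left some untested), 9 passed without either mutant and 1 with each library left out. The sign turned in genes without a call: over the libraries left out, log2 fold changes ran from -0.23 to 0.16 for Csf1r, with 0.02 without mutant replicate 54, from -0.46 to 0.24 for Fcgr2b, with 0.01 without control replicate 50, from -0.22 to 0.81 for Fcgr3, from -0.058 to 1.18 for Ccr2 and from -0.24 to 0.11 for Kit. The median of the tested markers lay between 0.46 and 1.04 with 1 library left out, and was 0.38 with a pseudocount of 5. The cause was not tested. No paired analysis was possible because the embryo numbers differ between the groups. Reads were few for several genes, among them Lck, Gzma, Aif1, Cd14 and Ms4a7 in the controls, with between 3 and 14 per gene and library. Cd163 had 0 and 4 reads in mutants 51 and 54, against 34 and 7 in controls 47 and 50. H2-Ab1 had between 10 and 21 reads per library.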
